A study of Mus musculus with 36 samples.

Results

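Gene expression in the mouse colon was compared with that in the small intestine taken as a whole. The mean of the 3 colon pools was set against the mean of the duodenum, jejunum and ileum means, each over 3 pools, within each of 3 array sets. All 36 arrays of the series enter this comparison, 9 of colon and 27 of small intestine, with 36701 probe sets, the groups of short probes that measure a transcript. Attention is given to probe sets whose 3 colon pools all lay above, or all below, the 9 small-intestinal pools, which held for 2647 of the 36701. The animals were male mice of the outbred stock Hsd:ICR(CD-1), aged 8 weeks, kept 5 to a cage with free access to a standard chow, with no treatment or genetic change in any group. Each pool joined RNA of 10 mice, and the labels describe 3 such pools. The duodenum was the short piece after the stomach, the jejunum its middle portion, the ileum its last stretch before the caecum, and the colon was left in 1 piece, so proximal and distal colon are mixed. Whole segments were used, so epithelium, muscle, nerves and immune cells all gave RNA.

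The small intestine breaks down food at the brush border of its villi and takes up sugars, amino acids, fat and most bile acids, and Paneth cells at its crypt bases release antimicrobial peptides. The colon has no villi and few or no Paneth cells. It recovers salt and water, takes up short-chain fatty acids made by bacteria, and holds a dense microbiota behind a thick mucus layer secreted by goblet cells.

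Median intensities of the array set A arrays ranged from 73.2 to 75.0 units in colon and from 48.7 to 75.2 in small intestine. For set B the ranges were 105.1 to 110.2 and 85.7 to 108.9, and for set C 90.0 to 104.5 and 85.5 to 101.5. The 18S ribosomal RNA control probe sets were low in jejunum pools 2 and 3 and ileum pools 1 and 3, at a mean of 80.1 to 684.5 units on set A against 2712 to 10420 in the other 8 pools. The duodenum 3 array of set C names jejunum in its source field and was kept as duodenum by its title. Precision is bounded by there being only 3 pools of each segment, and p-values measure the spread between these pools.

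Colon differed from the small intestine in 2778 probe sets, 7.57% of those tested (limma on log2 intensity, Benjamini-Hochberg adjusted p below 0.05, 2-sided). Signals rose in colon for 1628 probe sets (4.44%) and fell for 1150 (3.13%). At least 2-fold rises were called for 1070 probe sets (2.92%) and such falls for 763 (2.08%). Without overlap between the pools, 1637 probe sets (4.46%) lay higher in colon and 1010 (2.75%) lower. Array set A gave 13.6% of its probe sets as calls, against 7.23% on B and 1.58% on C. The split between rises and falls depends on the scaling. When every array was centred on its median, 1050 probe sets rose and 1381 fell, so rises were 43.2% of calls in place of 58.6%, and the median difference of all probe sets moved from 0.04 to -0.07 on the log2 scale. Leaving out a colon pool lowered the count of rises by more than 1.5 times, to 1014 without colon 1, 1035 without colon 2 and 914 without colon 3. Non-overlapping falls numbered 1557, 1507 and 1471 without colon 1, 2 and 3, as leaving out a pool can only add to them. With the 18S class as a block, 1651 rose and 1126 fell. The 8 pools with high 18S signal hold only jejunum 1 and ileum 2 of those segments, so their means there rest on single pools. The median difference of all probe sets was -0.02 both among these 8 pools and with the block.

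With 1 probe set for each of 15964 genes, 1097 genes (6.87%) rose in colon and 791 (4.95%) fell. Without overlap, 1074 genes (6.73%) lay higher and 668 (4.18%) lower. At least 2-fold rises were called for 680 genes (4.26%) and such falls for 502 (3.14%). Of these, 519 higher and 352 lower genes also had no overlap and a mean on the higher side above the median of their array set. Falls reached further than rises. Among the lower genes 44 of 352 differed by at least 4 on the log2 scale, a 16-fold change, against 17 of the 519 higher genes. For 162 of the 519 and 98 of the 352, the low side lay under the median intensity of its array set, where signal above background is not shown and the size of the difference depends on the offset of 16 units added before the logarithm. Leaving out any 1 pool gave 438 to 571 higher and 345 to 374 lower genes. With arrays centred on their median the counts were 368 higher and 440 lower, so the larger side turned. With an offset of 64 they were 370 and 305. Where a gene called higher had further probe sets, 806 of those 1082 (74.5%) lay in the same direction and 189 were called in it, and for genes called lower 472 of 622 (75.9%) and 139.

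**Figure D1:**
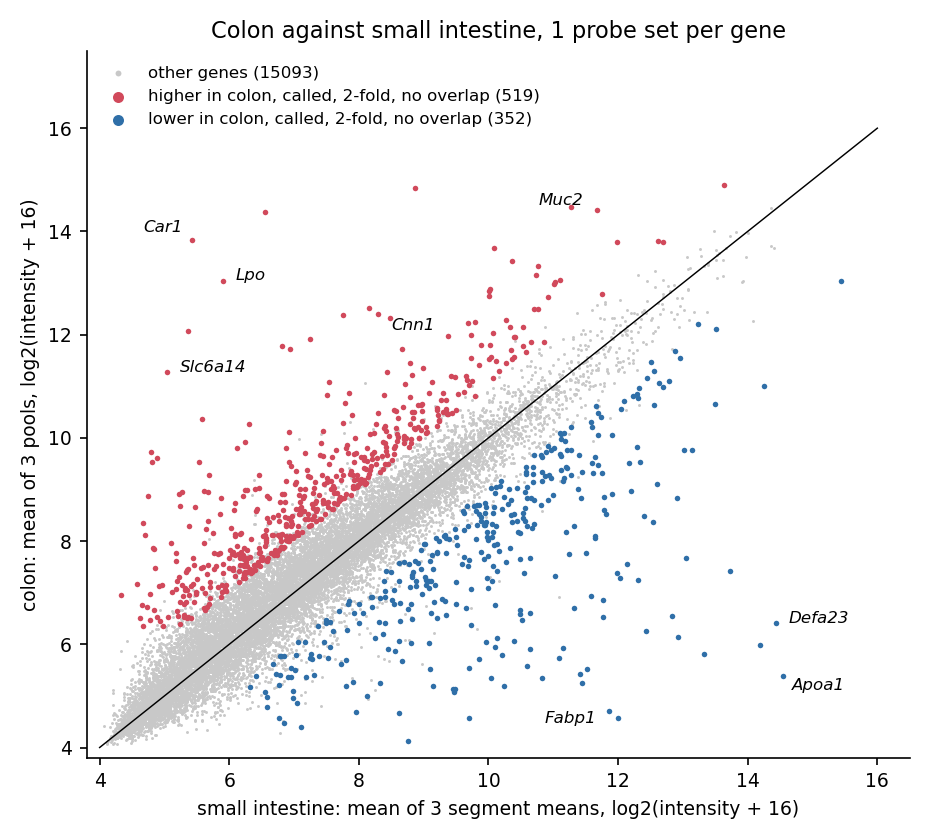
Mean of the 3 colon pools (vertical axis) against the mean of the 3 small-intestinal segment means (horizontal axis), both as log2 of intensity plus 16, with 1 point per gene and a line of equal signal. The 519 genes higher in colon and the 352 lower genes that were called, at least 2-fold and without overlap are coloured, and the lower genes reach further from the line than the higher ones.

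The edge of the no-overlap rule is narrow. Pyy, the gene of the gut hormone peptide YY, lay just inside, with its lowest colon pool at 1653.1 and its highest small-intestinal pool, from the ileum, at 1652.7. Noct, a circadian phosphatase gene, lay just outside at 1084.3 against 1085.9. On the lower side Prodh, the first enzyme of proline breakdown, was inside at 217.1 against 218.6, and Gpt, alanine aminotransferase, was outside at 2435 against 2428. None of the other probe sets of Noct, Prodh and Gpt was called in the same direction.

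Among genes with a name in use, without the unnamed transcripts that carry Riken or similar labels, the largest rise was that of Car1, a cytosolic carbonic anhydrase. Its signal was 12552, 17370 and 14029 units in colon pools 1, 2 and 3, and the small-intestinal pools ranged from 12.4 to 79.6 with a median of 25.1, a difference of 8.40 ± 0.26 (SE, log2 scale, adjusted p = 1.04e-11 by limma). Every colon pool was thus far above every small-intestinal pool. Lpo, lactoperoxidase, an enzyme of antimicrobial secretions, read 7849, 9277 and 8200 in colon and 21.5 to 159.2 in small intestine, a rise of 7.14 ± 0.42. Slc6a14, a sodium- and chloride-driven carrier of many amino acids, read 1961, 2302 and 3247 against 2.30 to 128.3 (6.23 ± 0.49), and only in the ileum did its segment mean exceed 10 units, at 81.9. Cyp2c55, a cytochrome P450, was among the brightest colonic transcripts at 20013, 29068 and 44012, against 148.4 to 875.9 (5.99 ± 0.43).

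Another 11 genes complete the 15 largest rises of named genes, with differences from 4.96 down to 4.10. Sptssb, a small subunit of the enzyme that starts sphingolipid synthesis, read 3192, 3118 and 4231 in colon against at most 391.9 in small intestine. Ccn3, a secreted matrix-associated protein, read 1085, 825.5 and 628.4 against 6.60 to 19.4. St6galnac6, a sialyltransferase, read 1326, 1307 and 1278 against at most 163.9, with the ileum the highest small-intestinal segment. Plet1, a surface protein of epithelia, and the gasdermin gene Gsdmc2 had colon means of 3347 and 5838. Hao2, a hydroxyacid oxidase, and Sult1a1, a sulfotransferase, rose by 4.73 and 4.13, but for each a second probe set gave 0.05 and -0.04 and was not called. Insl5, a peptide hormone of colonic endocrine cells, spread most among the colon pools, at 1264, 1003 and 292.7, with a small-intestinal maximum of 23.8. Saa2, an acute-phase serum amyloid A protein, Car2, a second carbonic anhydrase, and Mptx1, mucosal pentraxin, completed the 15. Over all settings the difference of Saa2 ranged from 1.89 to 5.02, and its call was kept. Mptx1 read 7081, 7451 and 2947 in colon, so pool 3 was the lowest for both Insl5 and Mptx1.

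**Figure D2:**
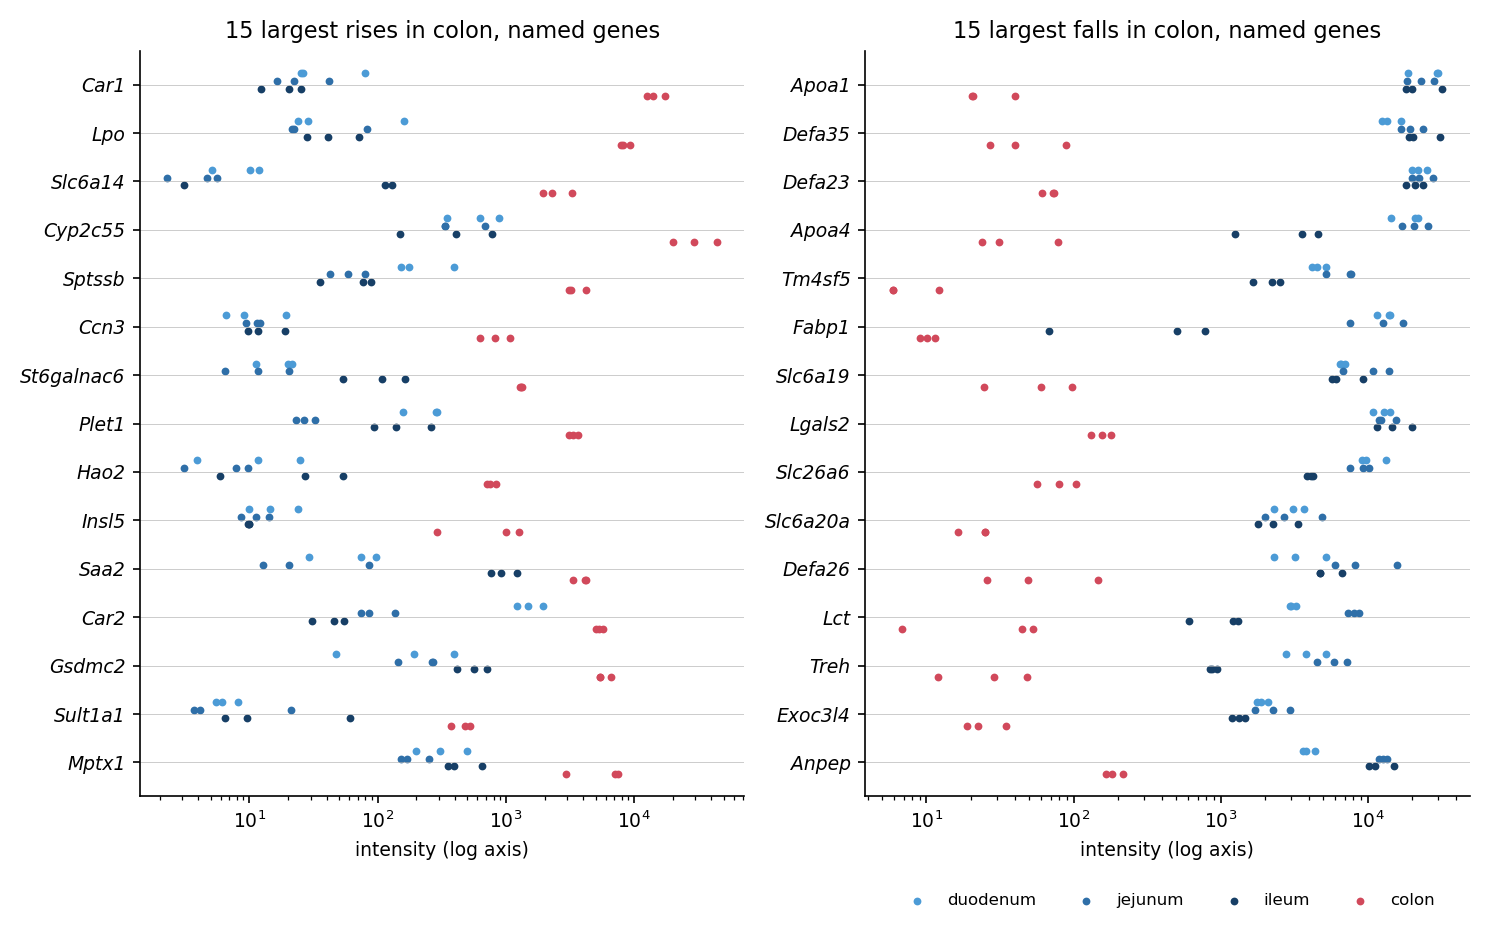
Intensity (log axis) of the 15 named genes with the largest rises (left) and the 15 with the largest falls (right) in every pool, unnamed transcripts left out, with 1 point per pool and colours for the segments. The genes were drawn from those called, at least 2-fold and without overlap, so the separation of colon from small-intestinal pools follows from the choice. For Fabp1, Apoa4, Treh and Lct the ileum lies nearest to the colon.

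Genes of food absorption and of Paneth cells made up most of the 15 largest falls of named genes. Apoa1, the main protein of high-density lipoprotein, was among the brightest small-intestinal genes, at 18383 to 32138 with a median of 23224, and read 39.9, 20.6 and 20.3 in colon (-9.14 ± 0.21, adjusted p = 3.51e-13, limma). A second probe set of Apoa1 gave -8.50 and was called too. The alpha-defensins Defa35, Defa23 and Defa26, microbe-killing peptides of Paneth cells, were lower in colon, with differences of -8.21, -8.03 and -6.18. Their probe sets can bind transcripts of closely related defensins, so the members cannot be told apart. Tm4sf5, a membrane protein with 4 spans, read 5.90, 12.1 and 5.90 in colon and at least 1658 in small intestine (-7.42 ± 0.16). Slc6a19 and Slc6a20a, carriers of neutral amino acids and of proline, read at most 98.4 and 25.1 in colon and at least 5693 and 1788 in small intestine. Slc26a6, an anion exchanger, read 79.3, 103.7 and 56.8 in colon against 3857 to 13347 (-6.28 ± 0.17). Lgals2, a galectin, read 157.4, 181.0 and 132.2 against 10896 to 19944 (-6.31 ± 0.17). Lct, Treh and Anpep, the brush border enzymes lactase, trehalase and aminopeptidase N, read at most 53.3, 48.1 and 217 in colon and at least 607.9, 844.5 and 3668 in small intestine. Exoc3l4, related to a subunit of the exocyst, fell by 5.47, and its second probe set gave -0.73 and was not called.

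Fat absorption and brush border enzymes were the gene lists with the lowest medians, and their order changed between settings. Of 21 measured genes of fat absorption, 17 fell in colon and none rose (in all genes 4.95% fell). Their median was -3.18 on the log2 scale against 0.05 over all genes. Without overlap 16 lay lower, beside 4.18% of all genes. Apoa4 read 31.3, 23.9 and 79.0 in colon against 1250 to 25925 in small intestine, and Apoc2, another apolipoprotein, read 125.6, 170.7 and 114.1 against 487.5 to 15175. Fabp1, a fatty acid binding protein of the enterocyte cytoplasm, read 11.4, 9.0 and 10.1 in colon. In the ileum it read 453.1 on average and in duodenum and jejunum 13206 and 12518, and the difference was -7.15 ± 0.46, although a second probe set gave only -0.48 and was not called. Mttp, which loads fat onto apolipoprotein B, read 1.10, 1.80 and 1.30 against 208.1 to 638.7 (-4.64 ± 0.21), values that in colon lie near the bottom of the scale. Rbp2, a carrier of absorbed vitamin A, fell by 4.61 ± 0.16. Of genes chosen from the list after their values were seen, Abcg5 and Abcg8, which together return sterols to the lumen, differed by -4.65 and -4.05, and Mogat2 and Dgat1, which rebuild triglyceride, by -3.89 and -3.29.

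Promoters of the lower genes were searched for short motifs of factors known from intestinal genes, in the 250 bases before the first listed start of each gene (RefSeq, GRCm38.p6) and on both strands. The HNF4 motif CAAAGTC stood in 21 of 281 promoters of genes lower in colon (called, at least 2-fold, no overlap), 7.47%, in 14 of 421 of higher genes, 3.33%, and in 451 of 12651 of all measured genes with a promoter, 3.56%. For the HNF1 motif GTTAAT the shares were 6.76%, 4.04% and 4.65%. For the CDX motif TTTATGG they were 2.85%, 2.61% and 1.76%, and for the GATA motif AGATAAG 2.85%, 1.19% and 1.99%. A match of these letters is a description and shows no binding. The promoters of Apoa1, Apoa4, Defa23, Defa35, Tm4sf5, Slc6a19, Slc26a6, Lct and Anpep, all strong falls, hold none of these motifs. Those of Ace, Alpi and Creb3l3 hold HNF4 letters and are not printed. The promoters of 4 other strong falls are printed 5′ to 3′ because each holds at least 1 of these motifs, in capitals (reverse complements included). They were chosen with their values known. That of Lgals2 (chr15:78855530-78855779, minus strand) holds HNF4, CDX and HNF1 letters within 79 to 46 bases of the start. That of Treh (chr9:44672983-44673232, plus strand) holds 2 HNF4 matches, 1 on each strand, that of Rbp2 (chr9:98490287-98490536, plus strand) 1, and that of Fabp1 (chr6:71199629-71199878, plus strand) holds 1 HNF1 and 2 CDX matches.
Lgals2: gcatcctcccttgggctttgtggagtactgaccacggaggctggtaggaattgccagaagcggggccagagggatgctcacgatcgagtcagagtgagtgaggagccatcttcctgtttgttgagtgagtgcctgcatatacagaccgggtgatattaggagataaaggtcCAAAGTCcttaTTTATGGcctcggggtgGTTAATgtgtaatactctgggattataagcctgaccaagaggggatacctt
Treh: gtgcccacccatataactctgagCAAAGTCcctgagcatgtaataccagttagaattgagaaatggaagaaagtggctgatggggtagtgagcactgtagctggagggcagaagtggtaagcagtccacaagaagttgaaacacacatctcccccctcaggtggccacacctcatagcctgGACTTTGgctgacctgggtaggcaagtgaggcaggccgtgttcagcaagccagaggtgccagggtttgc
Rbp2: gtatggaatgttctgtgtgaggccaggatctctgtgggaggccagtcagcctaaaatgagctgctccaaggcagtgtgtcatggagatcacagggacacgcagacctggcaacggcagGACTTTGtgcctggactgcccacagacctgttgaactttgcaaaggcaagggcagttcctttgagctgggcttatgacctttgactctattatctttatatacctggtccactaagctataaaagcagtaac
Fabp1: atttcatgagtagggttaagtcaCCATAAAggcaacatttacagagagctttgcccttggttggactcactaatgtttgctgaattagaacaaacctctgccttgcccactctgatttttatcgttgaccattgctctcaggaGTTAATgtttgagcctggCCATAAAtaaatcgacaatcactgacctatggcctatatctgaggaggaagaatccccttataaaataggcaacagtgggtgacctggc

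Carriers of sugars, amino acids and peptides fell almost as far. Of 16 measured, 13 fell and 2 rose (4.95% and 6.87% of all genes), with a median of -2.81. Slc5a1, the sodium-glucose carrier of the brush border, read 395.4, 447.8 and 505.2 in colon against 2088 to 5753 in small intestine (-2.93 ± 0.14), and Slc2a2, the basal glucose carrier, fell by 4.32 ± 0.21. Slc7a9 and Slc7a7, subunits of the carriers of cystine and of cationic amino acids, differed by -3.49 and -3.70. The 2 genes that rose were Slc6a14, already described, and Slc1a5, a glutamine carrier, which read 209.2, 245.6 and 284.4 against 85.4 to 182.6 (0.97 ± 0.18). Slc1a1, a glutamate carrier, was not called, at 47.5 in colon and 299.9 in ileum against 31.3 in duodenum and 43.8 in jejunum. Slc46a1, the folate carrier, which no list held, fell by 4.14 ± 0.26, with duodenum and jejunum at 3018 and 2473 and the ileum at only 99.4. Slc5a1 and Slc1a5 were picked after their values were seen.

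Brush border enzymes also fell as a list, 11 of 15 (4.95% of all genes), with none higher and a median of -3.13. Alpi, intestinal alkaline phosphatase, stayed bright in colon at 1707, 2178 and 2320, yet the small-intestinal pools read 6968 to 61075 (-3.24 ± 0.16). Mgam, maltase-glucoamylase, read 471.3, 453.2 and 541.0 against 3267 to 7269 (-3.23 ± 0.21). Ace, angiotensin-converting enzyme, fell by 4.42 ± 0.27 and was highest in jejunum at a mean of 4631. Mgam and Ace were picked after their values were seen. The single probe set of Sis, sucrase-isomaltase, did not pass the test. It read 3032, 3010 and 2490 in colon against 1464 to 4289 (-0.02 ± 0.31, adjusted p = 0.989, limma), with segment means of 3321, 2933 and 2823. The list of keratins and structure had 6 rises and 4 falls of 21 (6.87% and 4.95% of all genes), with a median of 0.11. Vil1, villin of the microvillus core, differed by -1.37 ± 0.12 and Anxa13, an intestinal annexin, by -2.99 ± 0.25, whereas Krt19, a keratin of simple epithelium, did not pass the test at a mean of 11772 in colon and of 7670, 10433 and 12514 in duodenum, jejunum and ileum.

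Enzymes that handle absorbed nutrients followed, and over all genes 4.95% fell and 6.87% rose. Of 12 genes of sugar metabolism 7 fell and 1 rose, with Fbp1, fructose bisphosphatase, at 22.6, 31.6 and 43.9 in colon against 340.0 to 3479 (-5.01 ± 0.15). In the arginine and urea cycle list 6 of 14 fell and none rose. Cps1, the entry enzyme of the cycle, read 89.1, 99.8 and 48.3 against 2051 to 6173 (-5.24 ± 0.18). Arg2, mitochondrial arginase, fell by 4.59, but a second probe set gave 0.17 and was not called. Represented by the upper middle probe set of each gene, the list had 2 falls and a median of 0.16 in place of -0.44. In purine breakdown 4 of 9 fell and 2 rose (1 rose without colon 1 or without colon 3). Ada, adenosine deaminase, had segment means of 14389, 4406 and 1135 from duodenum to ileum and 29.0, 494.5 and 188.0 in the colon pools (-4.59 ± 0.49), and Xdh, xanthine dehydrogenase, and Pnp, purine nucleoside phosphorylase, differed by -2.83 and -2.58. Of 43 genes of drug metabolism 16 fell and 6 rose (8 fell with the small intestine as a single group of 9 pools). Cyp3a11, the main drug-oxidising P450, differed by -4.73 ± 0.26 and Cyp2b10 by -3.81 ± 0.19, opposite to Cyp2c55. Gstm1, a glutathione transferase, did not pass the test, at 5128 in colon and 10607, 11288 and 1848 in the 3 small-intestinal segments.

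Genes of ion and water transport rose in part. Of 27 measured genes of that list 10 rose and 2 fell (in all genes 6.87% rose), with a median of 1.08 (1 fell without colon 2 or without colon 3). Beside Car1 and Car2, Aqp4, a water channel, read 928.8, 750.7 and 547.5 against 18.8 to 49.1 (4.0 ± 0.26), and its 2 other probe sets gave 2.84 and 3.88. Aqp8, another water channel, read 1059, 1121 and 578.5 against 15.6 to 98.9 (3.69 ± 0.30). Hsd11b2, which inactivates glucocorticoid and so leaves the mineralocorticoid receptor to aldosterone, rose by 3.27 ± 0.33. Car4, a carbonic anhydrase of the cell surface, read 3677, 5450 and 3636 against 285.0 to 2781. Over all settings the difference ranged from 0.62 to 3.82 for Hsd11b2 and from 1.02 to 2.11 for Car4, and both kept their calls. Slc9a3, the sodium-proton exchanger of the apical membrane, rose by 1.78 ± 0.30, and Slc12a2, the basal sodium-potassium-chloride carrier, by 1.68 ± 0.23. Guca2b, uroguanylin, a peptide that stimulates salt secretion, went the other way, at 580.3, 469.4 and 568.5 in colon against 3583 to 14347 (-3.50 ± 0.14). Slc26a3, the chloride-bicarbonate exchanger, did not pass the test and read at most 10.6 in colon and 104.0 in small intestine on a probe set with nearly all pools under the array median of 94.4. Aqp8, Hsd11b2, Car4, Slc9a3, Slc12a2 and Slc26a3 were chosen from the list after their values were seen.

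Goblet cell products rose in part. Of 17 measured, 8 rose and 2 fell (6.87% and 4.95% of all genes), with a median of 1.04. Muc2, the gel-forming mucin of the gut, read 19972, 27637 and 18511 in colon against 1943 to 4682 (2.74 ± 0.20), and Retnlb, resistin-like molecule beta, read 19440, 29517 and 20417 against 1399 to 4575 (3.20 ± 0.15). Agr2, which folds mucins, rose by 1.79 and Spdef, a factor of goblet cell maturation, by 1.5. Tff3, trefoil factor 3, fell by 0.89 ± 0.15, with 8870, 8691 and 7373 in colon against 11952 to 21716, and its second probe set gave -0.31 and was not called. Spdef and Tff3 were picked after their values were seen. Clca1 and Fcgbp, 2 further abundant mucus proteins, did not pass the test and read 16936 and 9107 on average in colon against 8718 to 15622 and 8028 to 15036 in the small-intestinal pools. Clca1 passed with quantile normalization (0.86) and when dim probe sets were left out. The falls numbered 1 without any single colon pool, and likewise without duodenum 2 or 3, jejunum 2 or 3, or ileum 2 or 3. The summed signal of the 17 goblet genes was 101000 to 135600 in colon and 60150 to 93800 in small intestine.

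Of 25 genes that build the sugar chains of mucins and surface glycans, 10 rose, 1 fell and 14 were not called, with a median of 0.64. Over all genes 6.87% rose and 4.95% fell. The count of rises was 6 without colon 2 or without colon 3. St6gal1, which adds terminal sialic acid, rose by 1.70 ± 0.21. Gne, which makes the sialic acid precursor and which the list did not hold, read 1583, 1389 and 1395 in colon against 314.3 to 419.7 (1.95 ± 0.12), and was nearly level along the small intestine at 367.0, 352.6 and 377.1. B4galnt1, which starts complex gangliosides, was the gene that fell, by 1.15 ± 0.19. Ceacam1, a heavily glycosylated adhesion protein, read 8333, 10365 and 8670 against 851.5 to 4221, and the ileum at 4006 stood closest.

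Surface defence genes moved in both directions, and over all genes 6.87% rose and 4.95% fell. Saa3 rose beside Saa2, at 188.9, 214.7 and 250.4 against 3.90 to 35.6 (3.04 ± 0.27), and the list of surface proteins had 6 rises and 2 falls among 17 genes. Pla2g2a, a secreted phospholipase that kills bacteria, picked after its values were seen, differed widely between colon pools, at 3258, 716.4 and 264.0, all below the small-intestinal range of 5183 to 15320 (-3.25 ± 0.49). Of 10 Paneth cell and Reg genes 7 fell and none rose, with a median of -2.51 (4 fell with the small intestine as a single group of 9 pools). Mmp7, which activates defensins, read 18.9, 11.4 and 36.1 in colon against 238.1 to 969.5 (-3.95 ± 0.20), and Reg3a, a secreted lectin, fell by 4.33 ± 0.24. Lyz1, Paneth cell lysozyme, picked after its values were seen, fell by 3.37 ± 0.23, but its second probe set gave 0.36 and was not called. Olfm4, a marker of small-intestinal crypt-base cells, read 39.8, 15.1 and 72.2 in colon against 1124 to 3461 (-5.35 ± 0.27), and its second probe set gave -3.04.

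Gut hormones divided by gene. Of 17 measured, 6 rose and 3 fell (6.87% and 4.95% of all genes), with a median of 0.65. The rises numbered 3 without colon 2 or without colon 3. Insl5 was by far the strongest rise. Pyy rose by 1.96 ± 0.44 (adjusted p = 0.00999, limma), with 2675, 2279 and 1653 in colon and an ileal mean of 1516, and its call was lost without colon 1, without colon 2 and with the small intestine as a single group of 9 pools. Gip, the incretin of the upper gut, read 21.4, 28.7 and 10.3 in colon against 295.7 to 1070 (-4.34 ± 0.18), and Cck, cholecystokinin, fell by 2.70 ± 0.23 with an ileal mean of 107.3 between colon and jejunum.

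Hox genes, which record position along the trunk, rose or were not called. Of 33 measured, 9 rose and none fell (in all genes 6.87% rose), with a median of 0.33. Without overlap 7 lay higher, beside 6.73% of all genes. The rises numbered 6 without colon 1, without colon 3 or with the 18S class as a block. The colon mean lay above the median of its array set in 16 of the 33. Of the 11 whose mean over all pools was above that median, 4 rose when only such probe sets were tested. Hoxa7 read 270.0, 179.6 and 204.9 in colon against 6.40 to 17.3 (3.02 ± 0.23). Hoxb6 rose by 1.43 ± 0.21 and Hoxb9, at 81.1, 78.5 and 96.4 against 2.40 to 31.0, by 1.81 ± 0.24. Hoxb13, the most posterior gene of its cluster, read 552.9, 366.3 and 138.8 and overlapped the small-intestinal maximum of 140.4 (1.93 ± 0.34), while its second probe set gave 3.08. Hoxa11, picked after its values were seen, rose by 1.45 ± 0.28.

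Among 30 factors of intestinal identity 8 rose and 5 fell (6.87% and 4.95% of all genes). Their median of 0.07 turned to -0.11 with arrays centred on their median, -0.04 with quantile normalization and -0.02 without colon 1. Gata5, a factor of the small intestine, read 10.9, 9.50 and 8.90 in colon against 137.6 to 369.0 (-3.28 ± 0.21), and Gata4 fell by 1.53 ± 0.29, with a second probe set at -4.94. Creb3l3, a lipid-responsive factor, differed by -4.07 ± 0.19 and Nr1h3, the oxysterol receptor LXR alpha, by -1.70 ± 0.17. Foxa1 read 411.2, 388.0 and 525.9 against 27.4 to 165.8 (2.21 ± 0.24) and Foxa2, a related factor, rose by 1.93 ± 0.28. Cdx1, a caudal homeobox factor of the gut, rose by 1.18 ± 0.13 and stepped up from duodenum to colon, with segment means of 320.1, 389.4, 641.9 and 996.9. Pparg, a fatty acid receptor, rose by 1.97 ± 0.27. Gata4, Foxa2, Cdx1 and Pparg were chosen from the list after their values were seen.

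Smooth muscle was the list with the highest share of rises, 14 of 17 with none lower, a median of 1.67 and 15 without overlap. Over all genes 6.87% rose and 6.73% lay higher without overlap. Cnn1, calponin, read 3680, 3924 and 4476 in colon against 426.2 to 1052 (2.61 ± 0.13). Tagln, transgelin, rose by 2.46 ± 0.14, and Myh11, smooth muscle myosin, picked after its values were seen, by 2.26 ± 0.28. The 17 genes summed to 39190 to 45000 in colon and 9268 to 19330 in small intestine, where the 3 ileum pools were the highest. In these bulk samples more cells of a type and more RNA per cell cannot be told apart. Of 26 connective tissue genes 8 rose and none fell (5 rose without colon 1), among them Dcn and Lum, the proteoglycans decorin and lumican, by 1.10 and 1.29. Kit, the receptor of pacemaker cells and mast cells, rose by 1.46 ± 0.21. As muscle and matrix move with the contrast, their part in the other rises was not tested.

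Genes of T cells and of antigen presentation fell in part, and over all genes 4.95% fell. Of 17 T cell genes 7 fell and none rose (4 fell without colon 1, colon 2 or colon 3). Ccl5, a chemokine of intraepithelial lymphocytes, read 103.6, 46.5 and 22.4 in colon against 600.5 to 1223 (-3.92 ± 0.26), and Cd7 fell by 1.51 ± 0.21. In the MHC class II list 6 of 11 fell and none rose, with H2-Ab1 at 540.8, 380.0 and 307.0 against 1044 to 3418 (-2.11 ± 0.17) and Cd74, the invariant chain, at 2419, 1849 and 1381 against 2894 to 9482. The summed T cell signal was 2247 to 2627 in colon and 3918 to 5519 in small intestine, and that of MHC class II 5952 to 8022 and 9724 to 26890. Of 15 B and plasma cell genes 2 fell and none rose (1 fell without colon 1, colon 3, duodenum 2 or jejunum 3), beside 4.95% of all genes that fell. Their sums overlapped, at 19980 to 31890 in colon and 20570 to 45010 in small intestine.

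**Figure D3:**
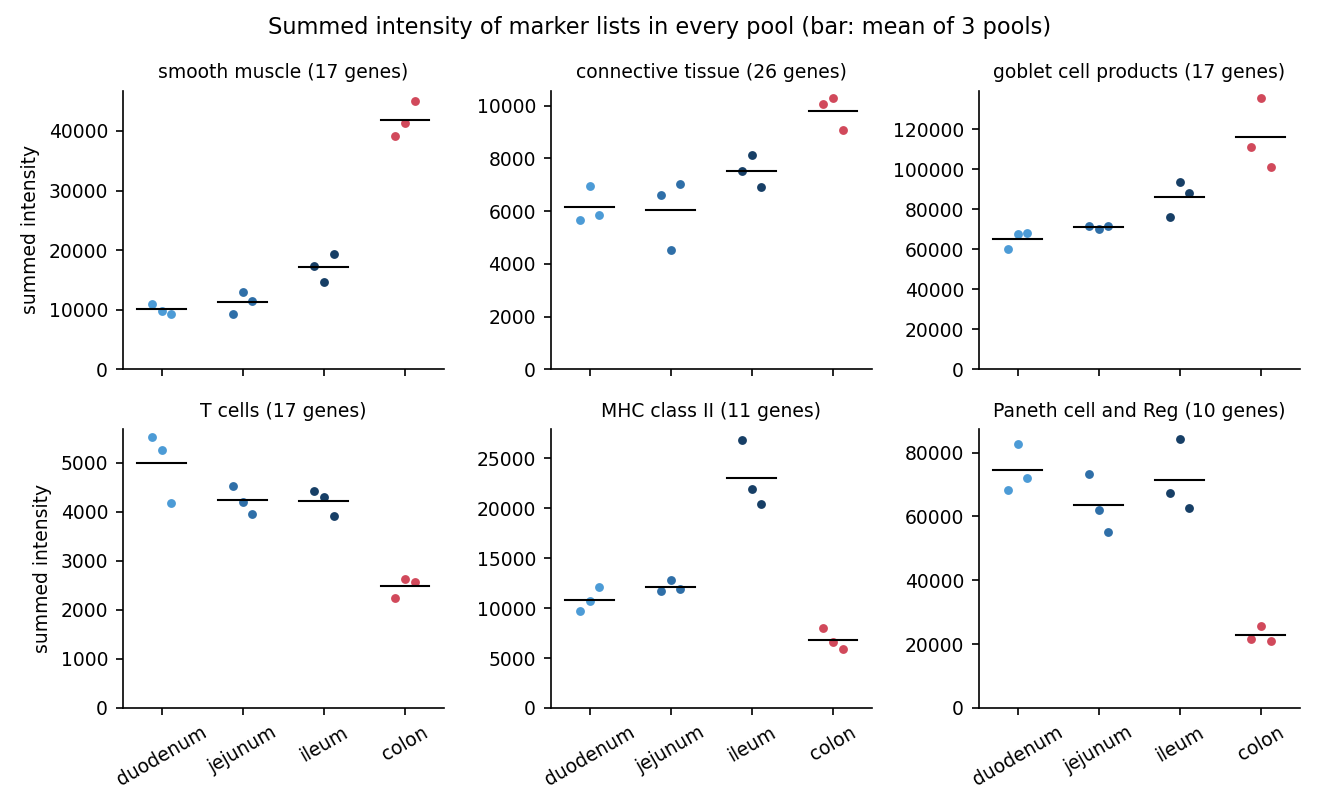
Summed intensity of 6 marker lists in every pool, with 1 point per pool and a bar at the mean of 3 pools; each vertical axis starts at 0. The smooth muscle sum is 39190 to 45000 in the colon pools and at most 19330 in the small-intestinal pools, and the T cell, MHC class II and Paneth cell sums are lowest in the 3 colon pools.

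Not every difference from the small-intestinal mean is a difference from the whole small intestine. Of the called genes, 793 higher and 554 lower had no overlap, whereas 304 higher and 237 lower overlapped in at least 1 pool. Of the overlapping genes 31.2% of the higher and 51.5% of the lower ones differed among the small-intestinal segments, against 14.5% and 32.3% of those without overlap and 5.31% of all genes (limma F test of duodenum, jejunum and ileum, adjusted p below 0.05). The same 9 pools decide the overlap and enter this test, so these shares are a description. Over all probe sets that test called 1206 (3.29%), and 790, 750 and 630 without jejunum 3, ileum 1 and ileum 3. The exocrine pancreas list is the clearest case. Of its 17 genes 13 were called lower and only 1 had no overlap, beside 4.95% and 4.18% of all genes. None of the 17 was called with the small intestine as a single group of 9 pools. Cela3b, a pancreatic elastase, had means of 15648 in duodenum, 32.3 in jejunum, 17 in ileum and 23.7 in colon. Tff2, a trefoil peptide of Brunner's glands in the duodenum, read 18749, 14.9, 19.5 and 52.5 in the same order, S100g, the calcium-binding protein calbindin D9k, 2659, 38.0, 11.5 and 24.5, and Reg1, a Reg lectin, 19739, 3783, 143.8 and 107.9. Fabp6, the ileal bile acid binding protein, was called lower by 1.24 although only the ileum exceeded the colon, at 10664 against 115.6, and with an offset of 1, or in a second probe set at -0.11, it was not called. The call of Tff2 was also lost with an offset of 1. Muc1, a membrane mucin, and Slc40a1, the iron exporter ferroportin, were called higher while the duodenal mean exceeded that of colon, at 440.0 against 378.6 and 8017 against 2131. The calls of these 7 genes were lost with the small intestine as a single group, as was that of Pyy, and that of Slc40a1 also without colon 3.

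Most of the 519 higher and 352 lower genes were even along the small intestine, but less often than genes in general. The span of the 3 segment means was under 1 on the log2 scale for 66.5% of the higher and 52.0% of the lower genes, against 86.2% of all genes. All genes, here and below, were not filtered by call, fold or brightness, and the offset shrinks the span of dim ones, so these sets are unlike. Apoa1 was even at segment means of 26186, 23395 and 23513. Pm20d1, an enzyme that joins fatty acids to amino acids, was among the 5 most even of the lower genes, at 752.2, 787.1 and 807.6 against 282.7 in colon. The segment nearest to the colon was the ileum for 69.0% of the higher and 57.7% of the lower genes, against 42.5% of all genes. Jejunum was the lowest segment for 62.2% of the higher genes (40.3% of all genes) and the highest for 59.4% of the lower genes (28.3%). Jejunum pools 2 and 3 also had the lowest median intensities of all pools on each array set, 48.7 and 53.2 on set A, and both were in the low 18S class, whose part in this was not tested. The 5 widest spans on the lower side were those of Fabp1, Slc46a1, Cyp2b10, Apoc2 and Slc2a2, each with the ileum nearest to colon. On the higher side Car2 (1551 in duodenum, 98.7 in jejunum, 43.7 in ileum and 5327 in colon) and Saa2 (67.2, 39.5, 966.0 and 3892) were the widest of the named genes.

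**Figure D4:**
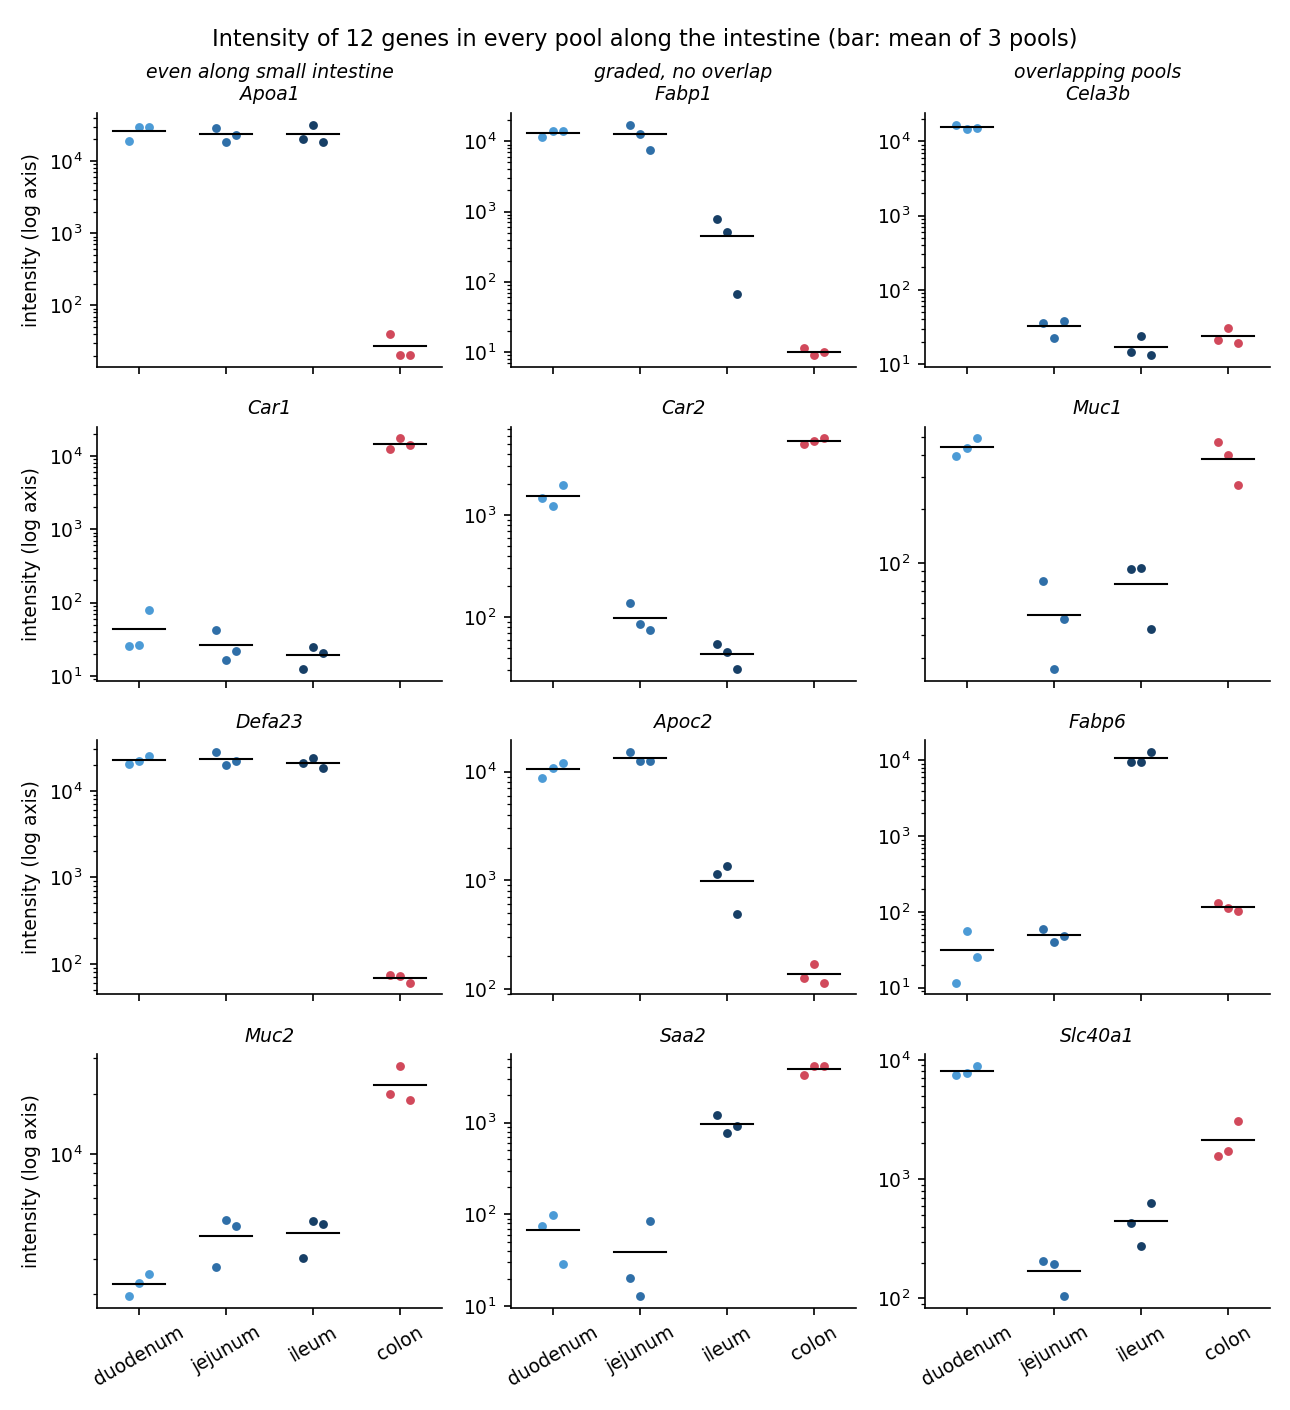
Intensity (log axis) of 12 genes in every pool of the 4 segments, with 1 point per pool and a bar at the mean of 3 pools; left column, genes even along the small intestine; middle, graded genes without overlap; right, genes called against the small-intestinal mean whose pools overlap. Cela3b is at 15648 in duodenum and 23.7 in colon, with jejunum and ileum at the colon's level.

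Lists of other tissues and general processes mostly had few calls or calls in both directions. Over all genes 6.87% rose and 4.95% fell, and these shares stand beside the counts below. In the main fit the few calls of the respiratory chain, cholesterol synthesis and heat shock went 1 way, and the cell cycle had only 1 call. With quantile normalization the cell cycle had 1 rise and 1 fall. With the 18S class as a block the respiratory chain had 1 rise and 3 falls. No gene of stratified epithelium (of 12) or skeletal muscle (of 13) was called. Their sums were 1142 to 1553 in colon and 950.8 to 1391 in small intestine, and 720.4 to 836.9 and 495.5 to 993.1. Fat cell genes had 3 rises and 2 falls of 8, with Adipoq, adiponectin, at 538.7, 392.9 and 400.9 against 14.9 to 124.0 (2.96 ± 0.29), while Lipe, hormone-sensitive lipase, fell by 1.75 ± 0.25. Rises and falls numbered 3 and 1 of 17 for neurons and glia, 1 and 3 of 16 for macrophages, 1 and 1 of 10 for mast cells, and 1 and 3 of 11 for stomach and Brunner's gland genes (0 and 0 with the small intestine as a single group). They numbered 1 and 3 of 9 for bile acid recovery, where Abcc3, a basal exporter, rose by 1.17, and 1 and 3 of 10 for iron and calcium uptake. With the small intestine as a single group they were 1 and 1 for bile acid recovery and 0 and 0 for iron and calcium. For tight junctions they were 2 and 2 of 15, with the claudins Cldn15 and Cldn4 at -1.68 and -1.12. They were 6 and 4 of 21 for keratins and structure, 3 and 2 of 26 for crypt base and Wnt genes, 1 and 0 of 24 for the cell cycle, and 0 and 4 of 25 for the respiratory chain. They were 3 and 0 of 17 for cholesterol synthesis (0 without colon 2 or colon 3), 2 and 4 of 20 for ketone and fatty acid oxidation, 5 and 2 of 18 for immediate early genes, and 3 and 0 of 17 for heat shock genes (0 without colon 1 or colon 3). Several of these small counts rested on single pools. Without any single colon pool, neurons and glia had 1 rise and the respiratory chain 2 falls, and the fall among neurons and glia was lost without colon 3. The immediate early rises numbered 3, 2 and 3 and their falls 0, 1 and 0 without colon 1, 2 and 3. Rises of tight junction genes numbered 0, 1 and 1, and those of crypt base genes were 0 without colon 1 and 1 without colon 3. The crypt base falls numbered 1 without any single colon, duodenum or ileum pool. The mast cell fall was lost without any single colon pool, the iron and calcium rise without colon 3, and 1 of the 2 fat cell falls without colon 2 or colon 3.

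**Figure D5:**
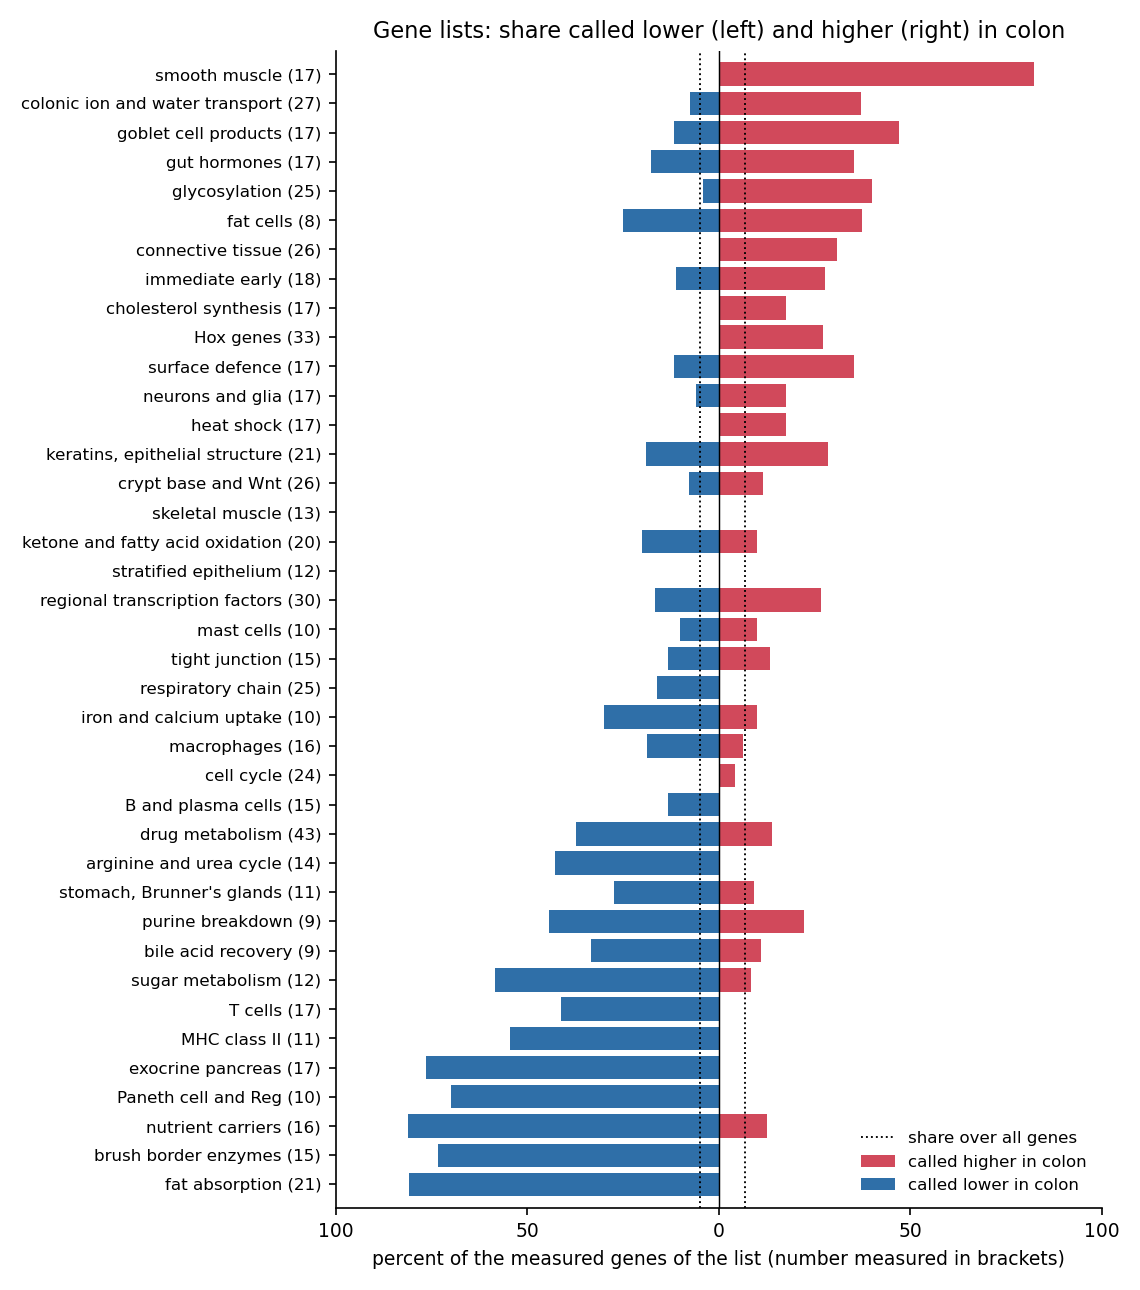
Share of the measured genes of each list called lower (bars to the left) or higher (bars to the right) in colon, in percent, ordered by the list's median difference, with the number of measured genes in brackets. Dotted lines mark the shares over all genes, 4.95% lower and 6.87% higher, and fat absorption (17 of 21 lower) and smooth muscle (14 of 17 higher) stand at the ends.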

How the data were processed

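RNA of whole intestinal segments was hybridised to 3 Affymetrix mouse array sets (A, B and C), with 12 arrays per set. The authors deposited 1 intensity per probe set and array. The labels and files name no scaling software or settings. From the values, trimmed means (2% at each end) were near equal across arrays, so intensities are relative to each array's total. Gene names came from GEO's platform annotation: of 36701 probe sets, 6846 carried no symbol and 724 more than 1, while 29044 of the other 29131 could be tied to a RefSeq gene.

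After 198 control probe sets were removed, log2(intensity + 16) went into limma (version 3.58.1, R 4.3.3). Each array set had its own fit of 4 segment means, with a variance trend. P-values were adjusted together over the 3 sets. Each gene was represented by its brightest probe set, from set A, else B, else C. The code was tested on simulated data. Named genes were the 15 largest rises and falls and the 5 widest and 5 most even genes in each direction. These were drawn from the 519 higher and 352 lower genes, which all lack overlap by that choice. From each of 39 lists came up to 4 members with the smallest adjusted p and up to 2 uncalled members with the highest mean. Another 37 were added after their values were seen. The members, lists and tests were chosen with earlier results of these data known. Alternatives covered the offset, normalization, dim probe sets, the variance model, grouping, blocks, the 3C array, the probe set and each pool.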

Additional observations from a re-analysis of the deposited data

How the results depend on the processing

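Of 129 called genes named in the text, 120 to 129 kept their call and direction under each alternative (119 of 119 measured with dim probe sets left out). With arrays centred on their median, 1050 probe sets rose and 1527 lay lower without overlap. With the small intestine as 1 group of 9 pools, 988 rose and 713 fell. Among the 8 pools with high 18S signal, 3166 lay higher and 2077 lower without overlap, which fewer pools make easier. The main fit called 1206 probe sets within the small intestine. That count was 286 among the 8 pools, where jejunum and ileum are single pools. With all pools but without the variance trend it was 791. Leaving out 1 pool gave 914 to 1781 rises, 831 to 1283 falls, 1719 to 2395 higher and 1053 to 1557 lower without overlap, and 630 to 1765 within the small intestine. The sign of Sis turned with quantile normalization (0.10), with array duodenum 3C left out (0.071) or counted as jejunum (0.021), and over left-out pools (-0.19 to 0.077). Other probe sets turned Sult1a1 (-0.036), Noct (-0.41), Arg2 (0.17) and Lyz1 (0.36), and the cause was not tested. With pool number as a replicate block, 1507 rose and 1108 fell, and none of the 129 genes lost its call. The labels do not say whether same-numbered pools share mice. Deviations of same-numbered pools correlated at -0.36 to 0.36 (median 0.02), against -0.36 to 0.30 (median -0.01) for others. Between ileum and colon all 9 same-numbered values were above 0 (0.037 to 0.19), against 4 of 18 others. No other pair of segments showed this in all its values. The 9 values are 3 pool numbers read on 3 array sets of the same pools, so they are technical repeats. Deviations are taken from the mean of the same 3 pools, so the other 18 values are not free of these 9. As the labels are silent, the numbers were not taken as pairs in the main fit. Without colon 1, 2 or 3 the count within the small intestine was 972, 947 and 992, as colon arrays share its variance. Brush border enzymes had a lower median than fat absorption with an offset of 1, with either middle probe set, and without colon 1, colon 3 or duodenum 2. Signals under the array set median, 66.3, 100.4 and 94.4 units on A, B and C, are not shown to be above background, which limits small folds and the size of large ones.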

Other observations

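The 4 genes Sqor, Ethe1, Tst and Selenbp1, which act on sulfur compounds, belong to none of the gene lists and were picked after their values were seen. All were called higher in colon. Hydrogen sulfide is a product of colonic bacteria. Sqor, sulfide quinone oxidoreductase, read 1645, 1797 and 1965 units in colon against 89.8 to 353.3 in small intestine (3.31 ± 0.18, SE, log2 scale), and its second probe set gave 0.51. Ethe1, which oxidises persulfide in mitochondria, read 9886, 13269 and 10113 against 916 to 1752 (3.07 ± 0.15). Tst, the sulfur transferase rhodanese, read 1106, 1050 and 1140 against 71.4 to 180.0 (3.20 ± 0.17), although its second probe set gave 0.12 and was not called. Selenbp1, a methanethiol oxidase, read 4563, 5110 and 5813 against 264.9 to 409.4 (3.85 ± 0.12, adjusted p = 1.16e-11, limma), with small-intestinal segment means of 289.4, 401.9 and 343.3. In all 4 genes every colon pool lay above every small-intestinal pool.

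Kallikreins are serine proteases, some of which release kinins. The probe sets of Klk1, Klk1b1 and Klk1b5, also picked after their values were seen, rose by 2.84, 2.86 and 2.84, with the jejunum lowest in each. Their probe sets may bind transcripts of related kallikreins, so the members cannot be told apart, and a second probe set of Klk1 gave 0.95 and was not called. Among transcripts without a gene name in use, 1810065E05Rik read 17028, 23868 and 24053 in colon and 10.4 to 893.4 in small intestine (7.83 ± 0.29), a difference near that of Car1. Another, 2610528A11Rik, read 4210, 3948 and 4733 against 5.0 to 111.7 (6.71 ± 0.22). In both the ileum was the highest small-intestinal segment, at means of 536.2 and 94.6.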
